A study of Mus musculus with 2 samples.

Results

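Peaks of HDAC4 chromatin immunoprecipitation followed by sequencing (ChIP-seq) that carry the names of the chromatin regulator genes Ehmt1, Ep400 and Arid1a were described in proliferating C2C12 myoblasts. These are 3 of the 229 peaks of the study, taken as the peaks whose annotated gene or annotated neighbour is one of the 3 genes, and each gene had 1 peak. The members were chosen by the presence of a called peak of HDAC4 ChIP over input in these same libraries, so their pileup, fold and q-value are a description and no test was made on them. The Ehmt1 and Ep400 peaks lay at the start of their genes with folds of 11.0 and 8.50 over input, whereas the peak assigned to Arid1a lay 57229 bp from the Arid1a start with a fold of 5.58.

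C2C12 is an immortalized mouse myoblast cell line of strain C3H, used here at passages 30 to 32. Cells were kept for 24 hours in growth medium with 20% fetal bovine serum, and their chromatin was fixed with 1% formaldehyde for 12 minutes. The ChIP library was made from chromatin precipitated with 7.5 μg of an antibody against HDAC4 (sc-11418), and the input library from chromatin of the line that was not precipitated. There is 1 library of each kind, so no value has a replicate, and the intervals given are exact Poisson or exact binomial 95% intervals that cover counting error only. Both libraries come from a single condition with unmodified HDAC4, and an IgG precipitate, which the labels name as negative control, was not analysed here. No expression values were analysed, so the identity of the cells could not be checked against myoblast markers.

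HDAC4 is a class IIa histone deacetylase that does not bind DNA itself and is brought to chromatin by transcription factors, such as those of the MEF2 family in muscle, and by corepressor complexes. Ehmt1 encodes GLP, which together with G9a (Ehmt2) adds methyl groups to lysine 9 of histone H3 (H3K9), a mark of silenced genes in euchromatin. Ep400 encodes the ATPase of the TIP60-EP400 complex, which acetylates histones and exchanges histone variants at active promoters. Arid1a encodes a DNA-binding subunit that marks the BAF form of the SWI/SNF nucleosome remodeller. In skeletal muscle, SWI/SNF remodelling opens the promoters of muscle genes for MyoD, while G9a is known as a brake on the differentiation of myoblasts.

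The sequence under each peak is shown first, read from GRCm38 (mm10, the build of the peak table) on the minus strand, on which all 3 genes are transcribed. The stretches were chosen to show the short words that the Ehmt1 promoter repeats and the paired boxes in the Ep400 peak. At Arid1a the stretch holds the summit near its downstream end and lies mostly upstream of it. Capitals mark the SP1 box GGGCGG or words that match GCANGCGC, a form of the NRF1 core GCATGCGC with any base in place of its T. Either strand was allowed, so a box can read in reverse.
Ehmt1, chr2:24919644-24919943, minus strand: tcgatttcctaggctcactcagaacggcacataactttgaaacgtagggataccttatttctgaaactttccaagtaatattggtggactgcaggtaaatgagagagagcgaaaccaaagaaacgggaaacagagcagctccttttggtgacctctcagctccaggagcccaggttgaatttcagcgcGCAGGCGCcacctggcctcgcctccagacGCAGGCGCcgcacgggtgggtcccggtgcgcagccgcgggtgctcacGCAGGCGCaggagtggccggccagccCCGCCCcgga
Ep400, chr5:110770355-110770384, minus strand: gctttgtcgtGGGCGGGCGGggccgagggg
Arid1a, chr4:133813968-133814267, minus strand: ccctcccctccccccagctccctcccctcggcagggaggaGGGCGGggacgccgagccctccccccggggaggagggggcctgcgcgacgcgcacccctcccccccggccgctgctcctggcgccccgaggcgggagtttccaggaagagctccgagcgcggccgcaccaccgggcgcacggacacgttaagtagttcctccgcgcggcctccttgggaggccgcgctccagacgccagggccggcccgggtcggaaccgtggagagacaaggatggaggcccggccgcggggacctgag

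Ehmt1 carried the highest values of the 3 genes. Its peak spanned chr2:24919512-24919955 (444 bp), and the authors' annotation placed it upstream of the gene. The pileup, which counts ChIP fragments at the highest point, was 16 tags (95% interval 9.15 to 26.0). The local input background was 5 tags of the input library, which is 0.539 tags once scaled to the smaller ChIP library. The authors' fold, the ratio of pileup plus 1 to scaled background plus 1, was 11.0 (6.59 to 17.5 from counting error of the pileup alone). This fold ranked at 6 of 229 peaks, first of the 25 peaks on chromosome 2 and at 5 of the 32 upstream peaks. The −log10 q of the peak was 14.3, far from the cutoff of 2.

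Ep400 followed. Its peak spanned chr5:110770245-110770647 (403 bp) and was annotated as intronic. The pileup was 13 tags (6.92 to 22.2) over an input background of 6 tags (0.647 scaled), and the fold was 8.50 (4.81 to 14.1). It ranked at 20 of 229 peaks by fold and had the highest fold of the 47 peaks annotated as intronic, whose median was 6.34. Its −log10 q was 8.90.

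The peak assigned to Arid1a had the lowest values. It spanned chr4:133813833-133814413 and, at 581 bp, was the longest of the 3. The pileup was 10 tags (4.80 to 18.4), equal to the median of ordinary peaks, defined below. The input background was 9 tags (0.971 scaled), which left a fold of 5.58 (2.94 to 9.84) at rank 192 of 229. Its −log10 q of 3.68 ranked at 219, close to the lowest value in the table, 2.80.

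**Figure D1:**
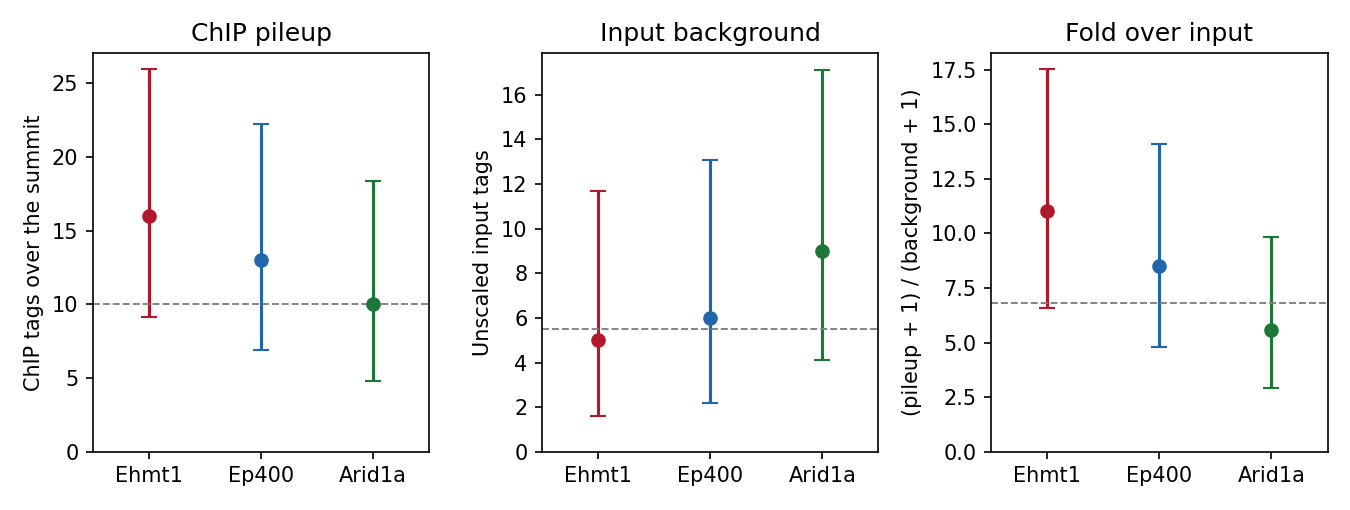
ChIP pileup in tags, input background in unscaled input tags and fold over input for the Ehmt1, Ep400 and Arid1a peaks. Points are the values of the single libraries, bars exact Poisson 95% intervals (for the fold, of the pileup alone) and dashed lines the medians of 188 ordinary peaks (10 tags, 5.52 tags and 6.84). From Ehmt1 to Arid1a the pileup goes down from 16 to 10 while the background goes up from 5 to 9, and the intervals overlap in each panel.

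The order of the 3 folds came from both libraries. Between Ehmt1 and Arid1a the pileup differed by 1.60 times and the input background by 1.80 times in the opposite direction, and the fold differed by 1.98 times. Since the fold adds 1 to scaled backgrounds of only 0.539 and 0.971, the background entered it with less weight than the pileup. Between Ehmt1 and Ep400 the fold differed by 1.30 times and between Ep400 and Arid1a by 1.52 times. In all 3 pairs the intervals of the pileup and of the fold overlapped, so neighbours in this order did not differ beyond their counting intervals. Per 1000000 kept tags, the ChIP library had 8.33, 6.77 and 5.21 tags at Ehmt1, Ep400 and Arid1a, and the input background was 0.281, 0.337 and 0.506. Without the 1 that the peak caller adds to both sides, the ratio of ChIP to scaled input was 29.7 (10.4 to 103.5, exact binomial), 20.1 (7.12 to 64.4) and 10.3 (3.76 to 28.6).

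For context, 40 of the 229 peaks had a pileup above 5 times the median of 11 tags, and those of lower pileup on chromosomes 1 to 19 and X, 188 in number, are called ordinary peaks here. All 3 genes had ordinary peaks. The input background was lower than at Ehmt1 in 37.2% of ordinary peaks, lower than at Ep400 in 53.2% and lower than at Arid1a in 78.2%. It was 1.77, 2.12 and 3.18 times the genome-wide background of 2.83 input tags at Ehmt1, Ep400 and Arid1a, so the background at Arid1a was the farthest above the genome level. The peak caller kept 1920168 of 10903000 ChIP tags (17.6%) and 17798166 of 19038793 input tags (93.5%), since it takes 1 tag for each position. The part of this loss in the values was not tested.

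**Figure D2:**
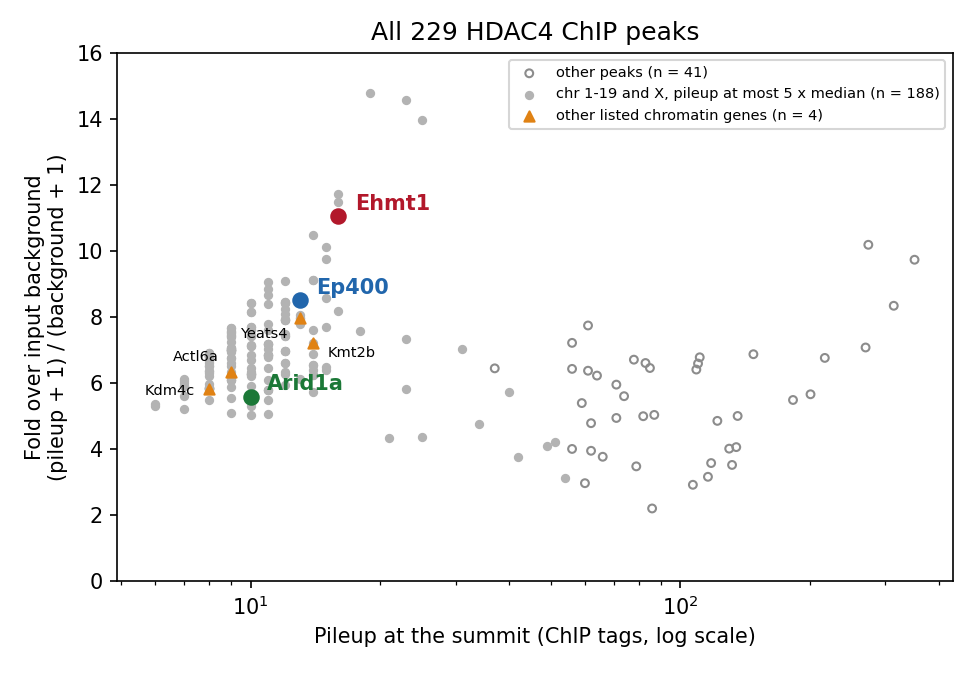
Pileup (ChIP tags, log scale) against fold over input for all 229 peaks, with Ehmt1, Ep400 and Arid1a as coloured points and 4 other listed chromatin genes as triangles. Filled grey points are the 188 ordinary peaks and open points the other peaks. Ehmt1 at 16 tags and fold 11.0 lies near the upper edge of the ordinary peaks, Ep400 at 13 tags and 8.50 below it, and Arid1a at 10 tags and 5.58 in their lower part.

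Rank depended on the quantity used to order the peaks. By pileup, Ehmt1 was one of 5 peaks with 16 tags at ranks 57 to 61, Ep400 ranks 80 to 86 and Arid1a ranks 132 to 158. By −log10 q the ranks were 45, 64 and 219. By the ratio without the added 1, Ehmt1 ranked at 10, Ep400 at 71 and Arid1a at 163, so among these quantities Ep400 was in the first 20 peaks only by the fold with the added 1. The counting interval of the fold spans ranks 1 to 123 for Ehmt1, 3 to 209 for Ep400 and 11 to 227 for Arid1a, which holds all the ranks given. The order of the 3 genes was kept under each of these quantities.

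The peaks next to each member by fold show what was just above and below it. Ehmt1 stood between Rab3gap2, a subunit of a Rab GTPase regulator (fold 11.5, 16 tags), and Upf1, the helicase of nonsense-mediated mRNA decay (fold 11.0, 16 tags), both annotated as upstream. Ep400 stood between 2310061I04Rik (8.58, 15 tags) and Smurf2, a ubiquitin ligase of the TGF-β pathway (8.44, 12 tags). Arid1a stood between Siah2, another ubiquitin ligase (5.59, 7 tags), and Chchd7, a mitochondrial protein gene (5.55, 9 tags).

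By distance over log2 pileup and log2 fold together, the 3 peaks most like Ehmt1 were Upf1, Rab3gap2 and 1110006O24Rik, all with 16 tags and folds of 11.0, 11.5 and 11.7. The peaks most like Ep400 were Prickle1, a planar cell polarity gene (fold 8.06), and Yeats4 and Asun (each 7.98), all with 13 tags. Yeats4 encodes a histone reader that is itself a subunit of the TIP60-EP400 complex. Closest to Arid1a were Bhlhe41, a transcriptional repressor also called Sharp1 (5.61), Lrrc16b (5.29) and Actn4, an actin crosslinker (5.90), all with 10 tags. These likenesses rest on 1 ChIP and 1 input library and on small whole numbers of tags, which many peaks share.

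Placement separated Arid1a from the other genes. In GENCODE M21, Ehmt1 (ENSMUSG00000036893, chr2:24789928-24919614) starts 67 bp downstream of the peak summit, and 7 coding start sites lay inside the peak. Of its 444 bp, 341 bp lay outside the gene, 40 bp in the 5′ UTR and 21 bp in coding sequence. In RefSeq the nearest mRNA start was 39 bp from the summit. The next coding gene on that side, Arrdc1, which encodes an arrestin-domain protein, is transcribed in the same direction, and its 3′ end lay 5397 bp beyond the peak.

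The Ep400 peak was also a start site peak, despite its label as intronic. Ep400 (ENSMUSG00000029505) spans chr5:110664373-110770717, and the summit lay 56 bp past the nearest coding start, in intron 1 just beyond exon 1 of that transcript, or 22 bp past the nearest RefSeq mRNA start. The peak held 2 coding start sites, and 156 of its 403 bp (38.7%) were 5′ UTR in GENCODE. The antisense gene Gm15559 started 478 bp upstream of the summit on the other strand, outside the peak.

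At Arid1a no peak overlapped the gene or its promoters. Arid1a (ENSMUSG00000007880) spans chr4:133679008-133756769, and the peak began 57064 bp upstream of it. The authors' annotation called the peak intergenic, 60386 bp from Arid1a and 33294 bp from Rps6ka1, which encodes the kinase RSK1. The Arid1a name thus came from the authors' gene column, which for this intergenic peak holds a flanking gene. Rps6ka1, given beside it as the other neighbour, was the nearer of the named genes. By GENCODE, Rps6ka1 ends 32877 bp from the peak and its 5′ end is 73799 bp from the summit, so by start site Arid1a was the nearer of them.

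The reference held other transcripts closer to this peak. The lincRNA gene Gm12974 started 2422 bp upstream of the summit on the other strand. RefSeq also places there a predicted protein-coding gene, Gm34296 (chr4:133792037-133815145, minus strand, 4 exons), which is not in GENCODE M21. The summit lay 1147 bp past the Gm34296 start, in its intron 1 and 31 bp from exon 2, and 135 bp of the peak overlapped that exon. The peak is therefore distal to Arid1a in both annotations, and between genes only in the annotations without Gm34296. Whether it acts on Arid1a, on Rps6ka1 or on neither was not measured.

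**Figure D3:**
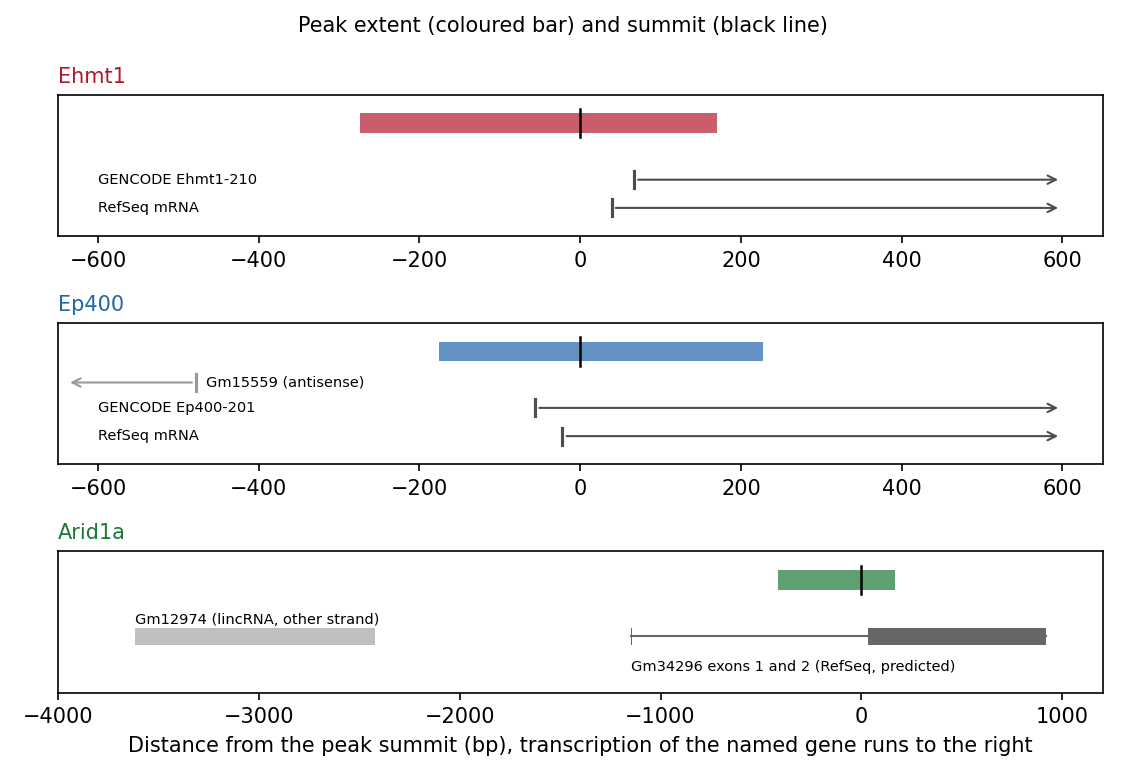
Extent (coloured bar) and summit (black line) of the 3 peaks against the nearest gene models, as distance from the summit in bp with transcription of the named gene to the right. Arrows start at the nearest coding start site in each annotation, and boxes are exons or, for Gm12974, the whole gene. The Ehmt1 and Ep400 starts fall inside the bars, 67 bp downstream and 56 bp upstream of the summit, while the Arid1a start is off the scale at 57229 bp.

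Most ordinary peaks were placed like those of Ehmt1 and Ep400. Of the 188, 142 (75.5%) had a GENCODE coding start within 1000 bp of the summit, and the median distance was 283 bp. Ehmt1 and Ep400 ranked at 43 and 39 by closeness, and Arid1a at 179 among the 22 peaks (11.7%) farther than 10000 bp from any coding start. Counting starts of any transcript, 12 peaks (6.38%) were that far and the Arid1a peak was no longer one of them. Among the 51 peaks annotated as intergenic the Arid1a fold ranked at 31, and at 13 among the 17 of them with ordinary pileup, whose folds ran from 3.75 to 10.5 with a median of 6.21. None of the 3 had another peak nearby. The nearest one was 413175 bp away for Ehmt1, 4861325 bp for Ep400 and 437469 bp for Arid1a.

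All 3 peaks lay in stretches rich in CpG, the dinucleotide that marks CpG island promoters. GC content was 65.8% at Ehmt1, 74.4% at Ep400 and 76.8% at Arid1a, against a median of 69.4% over ordinary peaks. There were 42, 62 and 77 CpG in the 3 peaks, or 9.46, 15.4 and 13.3 for each 100 bp, against a median of 10.1. Ep400 ranked at 6 of 188 by CpG density and Arid1a at 37, while Ehmt1 was below the median at 104. By density the distal Arid1a peak thus lay between the start site peaks, and in the 100 bp on either side of the summit it was the lowest, with 11.4 CpG for each 100 bp against 14.4 at Ehmt1 and 15.9 at Ep400. The part of GC content in the ChIP or input values was not tested.

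**Figure D4:**
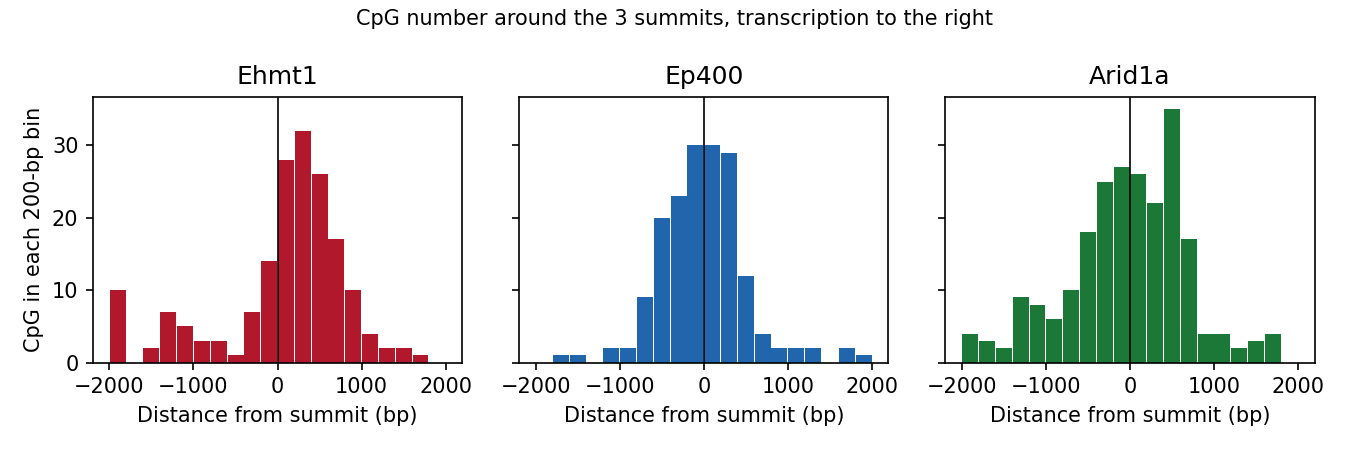
Number of CpG in each 200-bp bin from 2000 bp upstream to 2000 bp downstream of the 3 summits, with transcription of the named gene to the right and the summit as a black line. The highest bins hold 32, 30 and 35 CpG for Ehmt1, Ep400 and Arid1a. The Ep400 and Arid1a summits lie within their stretch, and the Ehmt1 summit lies at its upstream edge.

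The position of the summit within the CpG stretch differed. At Ehmt1 the bin just downstream of the summit had 28 CpG and the one just upstream had 14, and the highest bin, with 32, was centred 300 bp into the gene. In the 100 bp on either side of the summit the Ehmt1 GC content was 79.6% with 14.4 CpG for each 100 bp, higher than over the whole peak. At Ep400 the bins on both sides of the summit had 30 CpG. At Arid1a they had 27 and 26, and the highest, with 35, was centred 500 bp downstream in the exon 2 region of Gm34296.

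The promoter windows of Arid1a carried no peak and differed from each other in composition. RefSeq gives 2 of them, each of 300 bases. The window at the upstream start, position 133756769, had a GC content of 61.3% and 22 CpG, and the inner one had 79.7% and 36 CpG. The Ehmt1 promoter window had 71.7% and 34 CpG, and that of Ep400 had 71.0% and 33 CpG. The Ehmt1 window lay wholly inside the peak. The Ep400 window is set on a start at position 110770717 of chromosome 5, farther upstream than the one nearest the summit, and did not overlap the peak.

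In the printed Ehmt1 stretch the word GCAGGCGC stands 3 times in the same orientation within 84 bp, 5 bp downstream and 42 and 71 bp upstream of the summit. NRF1 is a transcription factor of nuclear-encoded mitochondrial and housekeeping genes. Its core GCATGCGC was in none of the 3 peaks. The looser GCANGCGC, which also contains the core, was searched after the Ehmt1 sequence had been seen. It stood 3 times or more in 16 of the 188 ordinary peaks (8.51%), and at least once in 300 bp around the summit in 26.1% of them and in 12.6% of 21263 RefSeq promoters of the same length. The Ep400 peak held it 1 time, 222 bp downstream of the summit at the peak edge, and the Arid1a peak did not hold it.

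The SP1 box GGGCGG, a GC box of CpG island promoters, stood 3 times in the Ehmt1 peak, 3 times in the Ep400 peak and 2 times in the Arid1a peak. At Ehmt1 these boxes lay 30, 57 and 81 bp downstream of the summit. The GENCODE start at 67 bp and the nearest RefSeq mRNA start at 39 bp fall among them. At Ep400 they lay 99, 103 and 121 bp downstream, and the first 2 overlap, as the printed 30 bases show. At Arid1a both lay upstream, 227 and 305 bp from the summit. In 300 bp around the summit the box stood in 63.3% of ordinary peaks and 46.2% of promoters, and a whole peak held 3 or more in 24.5% of cases.

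The binding word of MEF2, the muscle factor that recruits HDAC4, was in none of the 3 peaks, in 1.60% of ordinary peaks, counted in 300 bp around the summit like the shares that follow, and in 2.74% of promoters. The E-box CANNTG, the word of MyoD and other bHLH factors, stood 1 time in the Ehmt1 peak, in 59.6% of ordinary peaks and in 69.0% of promoters. The CCAAT box CCAAT stood in none of the 3 windows of 300 bp, against 13.3% of ordinary peaks and 38.2% of promoters, and 1 time in the Ehmt1 peak outside that window, 181 bp upstream of the summit. The ETS core CCGGAAG, the CRE TGACGTCA, the YY1 core AAGATGGCG and the TATA word TATAAA were in none of the 3. A missing word says only that these letters are not in the window.

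To set the 3 genes beside their class, 198 genes of chromatin regulation in 7 lists were counted. By the authors' gene column, 6 of 198 (3.03%) had a peak, against 170 of 21924 protein-coding genes, which is 0.775%. Counts by this column leave out peaks annotated as intergenic, such as that of Arid1a. Ehmt1 and Ep400 are among the 6 and were chosen for having a peak. Without the 3 members, 4 of 195 genes (2.05%) had one. At a −log10 q of 5 or more, 4 of the 198 were left, Ehmt1 and Ep400 included, against 0.534% of all coding genes. These counts are a description of 1 ChIP library.

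Of 22 genes of H3K9 methylation, Ehmt1 and Kdm4c had a peak by the authors' gene column, which gave one to 0.775% of all coding genes. Kdm4c, a demethylase of H3K9 and thus opposite in activity to GLP, had 8 tags (3.45 to 15.8) and a fold of 5.83 at rank 179. Ehmt2, the partner of Ehmt1, had none. Of 30 genes listed for the TIP60-EP400, SRCAP and INO80 complexes, Ep400 and Yeats4 had a peak. The lists share no gene, so Actl6a, also a subunit of TIP60-EP400, was counted with SWI/SNF only. Yeats4 had the same 13 tags as Ep400 over 7 input tags, a fold of 7.98 at rank 35, and a summit 101 bp past its start on chromosome 10.

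Of 28 SWI/SNF genes only Actl6a had a peak by this column once intergenic peaks were left out. It had 9 tags (4.12 to 17.1) and a fold of 6.34 at rank 142, its summit 207 bp upstream of the start. Actl6a encodes an actin-like protein that is a subunit of SWI/SNF and also of TIP60-EP400. Arid1a joins it when the neighbours of intergenic peaks are counted, which makes 7 of 198 against 0.917% of all coding genes by the same rule. Of 46 genes of Polycomb, Trithorax and DNA methylation, Kmt2b, a methyltransferase of lysine 4 of histone H3, had 14 tags (7.65 to 23.5) over 10 input tags and a fold of 7.22 at rank 68. No peak was assigned to the 27 genes of ISWI, CHD and NuRD remodellers, the 28 of deacetylases and corepressors or the 17 of acetyltransferases. At the share of 0.775% of all coding genes, lists of these sizes are likely to hold none, so this is no sign of absence in these classes. The 6 peaks had a median fold of 7.60 and a median pileup of 13 tags, against 6.84 and 10 tags over the 178 peaks annotated to a gene. Without Ehmt1 and Ep400 the median fold of the remaining 4 was 6.78 and the median pileup 11 tags.

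Apart from Arid1a, the chromatin genes with a peak by the authors' gene column had it near a start site. So did most ordinary peaks, 75.5% of which lay within 1000 bp of a coding start. The distance from summit to start was 348 bp for Kmt2b and 299 bp for Kdm4c, in both past the start. By gene bodies and 1000 bp upstream in GENCODE, the same 6 genes were counted against 0.967% of all coding genes. Within 10000 bp of the gene, Dot1l, a methyltransferase of lysine 79 of histone H3, was added through a peak annotated to Plekhj1 (fold 6.97), which made 7 genes against 1.37%. Within 100000 bp of a start site, 15 of the 198 (7.58%) were counted against 4.3%. Arid1a was one of these 15. Of the genes this rule added, the highest folds were at Sirt1 of the deacetylase list (95323 bp, fold 7.77), Kat7 of the acetyltransferase list (22361 bp, 7.61) and Pcgf6 of the Polycomb list (17171 bp, 7.17). Folds were lower for Smarcc1, a core SWI/SNF subunit (46411 bp, fold 5.81), and Kat5, the acetyltransferase TIP60 itself (80172 bp, fold 5.46). At such distances most peaks have another gene closer by, as the Arid1a peak does.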

How the data were processed

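The authors deposited 2 tables of the 229 peaks called by MACS on 1 HDAC4 ChIP library against 1 input library of C2C12 myoblasts. The annotated table was used. In the other the decimal points and pileups had been altered by a spreadsheet, and it was left out. The deposited pileup is a signal in tags at the summit, the deposited fold enrichment is a ratio of pileup plus 1 to scaled local background plus 1, and the authors' peak caller wrote p and q as −log10 values. Per the submitters' processing notes, mm10 was the genome and the tools were CASAVA 1.8.2, cutadapt, Bowtie2 and MACS2. The table header gives MACS 2.1.0.20150316, a q cutoff of 0.01, tags of 50 bp, fragments of 297 bp and 1 tag kept for each position. For cutadapt and Bowtie2 no version is given in the sources used here. The ChIP library kept 1920168 tags, and these 3 peaks had 10 to 16 tags each.

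The input background was computed as (pileup + 1) / fold − 1 and divided by 0.108, the ratio of kept tags, to give input tags. It was a whole number within 0.01 tags at 131 peaks, including the 3 described. It is the highest of the estimates the peak caller makes, not a count at the peak. The intervals of the background and of the ratio without the added 1 treat it as a count. They do not cover the choice of the highest estimate. A Poisson test returned the deposited −log10 p within 0.000142. Sequence, GENCODE M21 and RefSeq models were of GRCm38, and coordinates are 1-based. Motifs were counted on both strands. The scripts were tested on simulated data.

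The members, the gene lists and the rules were chosen with earlier results of these data known. The genes named are the members, listed chromatin regulators with a peak (for the wider distance rules, at most 5), the 3 peaks nearest each member in pileup and fold, the peaks just above and below by fold, and annotated neighbours. No test between groups was made, since each group has 1 library and the members were chosen on this contrast. Other orders of the peaks, backgrounds, annotations, windows and rules tying peaks to genes were tried. All 198 listed genes matched GENCODE names. Python 3.11.15 was used with pysam 0.24.0, pandas 2.3.3, numpy 2.4.6, matplotlib 3.10.9 and scipy 1.17.1.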

Additional observations from a re-analysis of the deposited data

How the results depend on the processing

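No paired analysis was possible because there is 1 ChIP and 1 input library. Of 44 values recomputed under other choices, 34 stayed within the counting interval, within 1 fragment length (distances) or within 1.5 times (counts). For the ranks this says little, since the intervals spanned ranks 1 to 123 at Ehmt1, 3 to 209 at Ep400 and 11 to 227 at Arid1a. Ep400 at rank 20 by fold and 80 by pileup, for example, counted as unchanged. The background was 0.539, 0.647 and 0.971 tags at Ehmt1, Ep400 and Arid1a when scaled to the ChIP library, a change of unit. The distance of the Arid1a summit from a start site of 57229 bp became 2422 bp with any GENCODE transcript and 1147 bp with RefSeq mRNAs, because of Gm12974 and Gm34296, and the authors' distance to the gene was 60386 bp. In the 100 bp on either side of the summit GC content was 79.6% at Ehmt1 and 71.6% at Arid1a, and Ehmt1 had 14.4 CpG for each 100 bp. The count of 6 chromatin genes became 15 within 100000 bp of a start site, 4 with −log10 q at or above 5 (0.534% of all coding genes), and 7 when intergenic neighbours were added (0.917%), an alternative chosen after seeing the data, as was the looser NRF1 word. With 10 to 16 tags a peak, differences under about the width of the intervals were not detectable at this depth, and genes with fewer tags may be missed.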
